A study of Mus musculus with 9 samples.

Results

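The 44 genes described here encode the machinery that copies nuclear DNA: the origin recognition complex, the factors that load the MCM2-7 helicase, the helicase itself, the proteins that switch it on, the sliding clamp and its loader, the replicative polymerases with primase, the proteins of single-stranded DNA and of lagging-strand joining, and 4 enzymes of nucleotide supply. They were chosen by gene symbol: every probe set annotated with a member's symbol was collected, and each gene was read through its brightest probe set (the highest mean log2 signal over all arrays). This gave 99 probe sets for the 44 genes, of which 91 passed the filter (a signal above the 40th percentile of its own array on at least 3 of the 9 arrays), and all 44 genes were among the 12941 genes tested.

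The RNA came from organoids of mouse small intestine, which are cultured epithelial structures that keep dividing stem cells beside differentiated cells, and was read on Affymetrix Mouse Genome 430 2.0 arrays, which carry short probes near the 3 prime end of each transcript. Each of 3 groups had 3 arrays: organoids given the TGF-beta1 ligand at 0.04 ng/mL (called ligand), organoids given an inhibitor of the TGF-beta receptors 1 and 2 at 20 uM (called inhibitor), and organoids given nothing (called untreated). Treatment ran for 5 days from day 1 of a 6-day culture. The identity of the inhibitor, any vehicle in the untreated wells, the mouse strain and age, and whether replicates came from separate cultures are details the sources used here do not state. The p-values therefore rest on differences among arrays that may be technical repeats.

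Replication is licensed before it starts. The origin recognition complex marks sites on the DNA, Cdc6 and Cdt1 join it and load the ring-shaped MCM2-7 helicase in an inactive form, and geminin (Gmnn) blocks Cdt1 once licensing is over. The kinase Cdc7 with its partner Dbf4 then acts on the loaded rings, Cdc45 and the GINS complex bind, and the helicase opens the DNA for the polymerases. Transcription of many of these genes is driven by E2F factors, which are held back by the retinoblastoma protein in resting cells and released as cells commit to S phase. In the intestine these genes are active in the dividing cells of the crypt and are switched off as cells mature on the villus.

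The sequences upstream of the members are shown because the E2F site is the element that many of them are known to share. Windows from 250 bases before to 50 bases after the annotated start (RefSeq, build GRCm38.p6) were at hand for 36 of the 44 genes, and each was searched on both strands for 4 spellings of the E2F site: TTTCCCGC, TTTCGCGC, TTTGCCGC and TTTGGCGC. At least 1 match lay in the window of 14 of the 36 genes (38.9%), against 704 of 27025 genes with a window in all (2.6%). The median GC content was 60.7% in the members' windows and 52.7% in all windows, and among genes whose windows lay within the members' GC range the share was 2.76%. In the list of mitosis genes described further on, 1 of 22 genes (4.55%) had a match. The CCAAT box, read by the factor NF-Y, was in the windows of 21 of 36 members (58.3%), of 17 of 22 mitosis genes (77.3%) and of 11096 of 27025 genes in all (41.1%). A match describes the letters only and says nothing of what binds there. The 20 matches of the members are mapped in the plot of motif positions, and 12 of them, in 9 genes, lay before the start. Those upstream stretches follow, each 5′ to 3′ on the gene's own strand, with the matched letters in capitals.
Cdc6 (chr11:98907989-98908044, + strand): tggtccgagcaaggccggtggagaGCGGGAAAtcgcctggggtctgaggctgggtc
Gins3 (chr8:95633494-95633549, + strand): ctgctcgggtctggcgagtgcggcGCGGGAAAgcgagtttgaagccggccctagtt
Mcm5 (chr8:75109332-75109391, + strand): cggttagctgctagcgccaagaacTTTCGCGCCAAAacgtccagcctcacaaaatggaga
Mcm6 (chr1:128359721-128359839, - strand): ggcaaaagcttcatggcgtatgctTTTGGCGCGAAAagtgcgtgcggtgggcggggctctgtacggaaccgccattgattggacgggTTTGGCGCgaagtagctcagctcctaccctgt
Mcm7 (chr5:138172017-138172072, - strand): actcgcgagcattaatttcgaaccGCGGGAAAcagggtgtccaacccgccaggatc
Orc1 (chr4:108579403-108579453, + strand): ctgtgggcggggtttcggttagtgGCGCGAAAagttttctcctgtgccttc
Orc3 (chr4:34614952-34615007, - strand): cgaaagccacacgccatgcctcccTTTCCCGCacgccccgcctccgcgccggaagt
Pola1 (chrX:93632262-93632317, - strand): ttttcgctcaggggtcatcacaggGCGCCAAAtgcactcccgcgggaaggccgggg
Rfc3 (chr5:151651209-151651242, - strand): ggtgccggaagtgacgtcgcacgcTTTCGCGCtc
The longer capital runs of Mcm5 and of the distal site of Mcm6 hold a match on each strand, overlapping by some letters. The other 5 genes with a match (Cdt1, Mcm3, Pole2, Pold1 and Lig1) had it after the start.

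**Figure D1:**
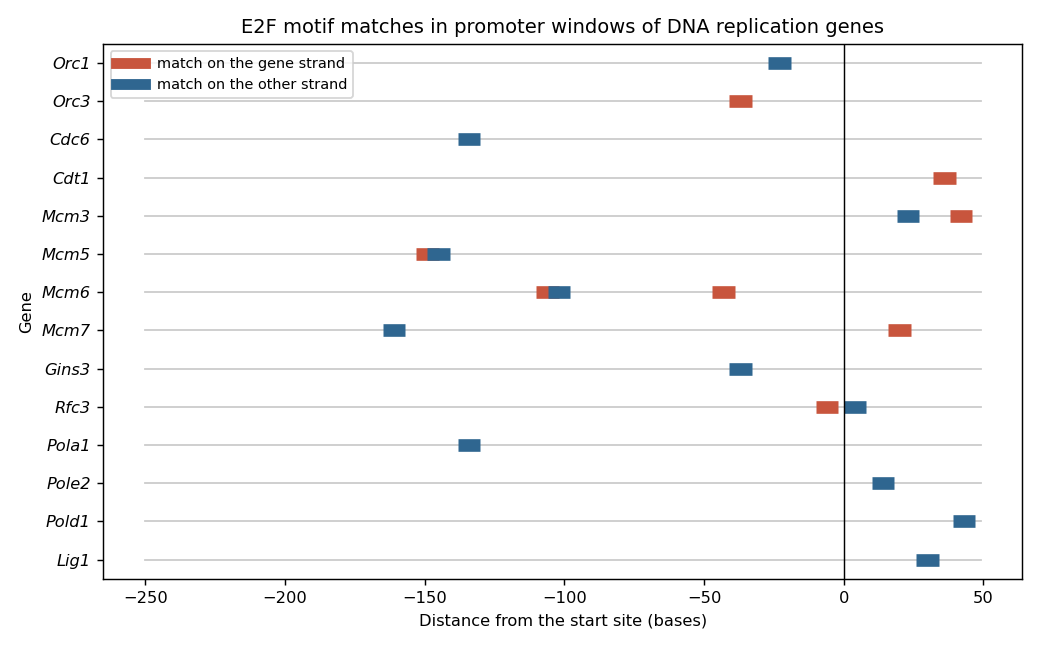
Positions of the E2F spellings in the windows of the 14 members with a match; the x axis is the distance from the annotated start in bases, each row is 1 gene, and colours give the strand of the match. Of the 20 matches, 12 lie before the start, and Mcm5 and Mcm6 have overlapping matches on both strands.

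On the arrays as a whole, the median signal ran from 46.1 to 57.9 and the trimmed mean was 350.0 on each, which is the mark of 1 scaling factor per array. The median signal averaged 54.8 with ligand, 47.5 with inhibitor and 49.5 untreated. All 3 ligand arrays lay above the arrays of both other groups (exact permutation p = 0.1 for ligand against each). Rank correlations over probe sets were 0.965 to 0.971 within groups and 0.944 to 0.965 between groups, so no array stood apart. The log2 ratio of 3 prime to 5 prime signal of the beta-actin control probe sets, a measure of RNA and labelling quality, was 0.468 ± 0.0985 with ligand, 0.211 ± 0.0299 with inhibitor and 0.411 ± 0.0352 untreated (SD, n = 3 each; exact permutation p = 0.1 for ligand against inhibitor and for inhibitor against untreated, the smallest that 3 against 3 allows). The same ratio for Gapdh averaged -0.267 with ligand, -0.278 with inhibitor and -0.265 untreated. Whether the actin ratio bears on the member values was not tested. Changes below are log2 differences of (signal + 16) from limma, with the standard error after the sign ±, and a gene is said to have changed where its p, adjusted over the 12941 genes by the Benjamini-Hochberg method, was under 0.05.

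The replication genes were lower with inhibitor than in untreated organoids almost across the set. Of the 44 members, 38 fell, 0 rose and 6 did not pass the test, where 44.9% of all genes tested were called, 21.1% higher and 23.8% lower. The median member change was -0.74, against -0.01 over all genes. A fall of at least 2-fold was found for 11 members (Cdt1, Mcm3, Mcm5, Mcm6, Mcm10, Gins1, Rfc3, Pola1, Pole, Pold1 and Tk1), where 2.45% of all genes fell that far and 2.6% rose that far. The same 38 members had all 3 inhibitor arrays under all 3 untreated arrays, a pattern seen in 29.3% of all genes, and 0 members had them all above (26.6% of all genes). The 6 without a call were 4 of the origin recognition genes (Orc1, Orc2, Orc3 and Orc4), the clamp gene Pcna and the flap nuclease gene Fen1.

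Changes with ligand against untreated were smaller. Of the 44 members, 17 rose, Rrm2 fell and 26 did not pass, where 24% of all genes were called, 14.7% higher and 9.3% lower. The median member change was 0.19, against 0.05 over all genes, and 0 members changed 2-fold, where 1.83% of all genes rose and 0.757% fell that far. All 3 ligand arrays lay above all 3 untreated arrays for 21 members (24.2% of all genes) and below them for 2, Gmnn and Rrm2 (14.4% of all genes). The count of 17 was 10 without the first ligand array and 10 without the first untreated array, and 3 when each array was centred on its own median in place of the deposited scale. That centring moved the median of all genes by over 0.1, to -0.06, and the member median to 0.08. The gap of 0.14 between the 2 medians stayed as it was. Centring shifts all genes of an array alike, so it could not change this gap and is no check of it. After quantile normalization, which can change the gap, the gap was 0.19. Related gene lists below were counted on the deposited scale only. Both comparisons use the same 3 untreated arrays.

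Set directly against each other, ligand gave higher levels than inhibitor for 39 members and a lower level for 1, Orc4, while Orc2, Orc3, Fen1 and Rrm2 did not pass. Over all genes 55.3% were called, 32.4% higher and 22.8% lower. The median member was 0.88 higher with ligand, against 0.07 over all genes, and 20 members were at least 2-fold higher and 0 at least 2-fold lower, where 5.93% and 3.88% of all genes were. The groups did not overlap for 37 members that were higher (35.1% of all genes) and for Orc4, the 1 that was lower (25.5% of all genes). The mean log2 signal of the 44 genes on each array was 10.02 to 10.04 with ligand, 9.14 to 9.16 with inhibitor and 9.80 to 9.91 untreated. In bulk RNA, fewer dividing cells and less of these RNAs in each cell cannot be told apart.

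Markers of intestinal cell types moved with the groups. The 7 pan-epithelial markers summed to signals of 64712 to 75053 with ligand, 64899 to 74879 with inhibitor and 63443 to 68300 untreated, so their sums overlapped between all groups. Of the 7, Cldn3 rose with inhibitor (0.52) and 6 did not pass. With ligand Cldn3 fell (-0.36), Krt18 rose (0.35) and 5 did not pass. The 11 stem cell markers measured, Lgr5 and Olfm4 among them, summed to 31393 to 33999 with ligand, 7129 to 7514 with inhibitor and 22491 to 24893 untreated. Olfm4 made up a large part of these sums, with 13159, 15728 and 15058 with ligand, 750.2, 696 and 1013 with inhibitor, and 12404, 13284 and 12895 untreated, and Lgr5, the stem cell receptor, fell with inhibitor by 0.68 ± 0.08 and rose with ligand by 0.74 ± 0.08. With inhibitor 10 of the 11 fell and 1 rose, and with ligand 9 rose and 0 fell. The 14 absorptive enterocyte markers summed to 64352 to 71288 with ligand, 95409 to 116262 with inhibitor and 83075 to 92157 untreated, with 8 rises and 0 falls under inhibitor and 1 rise and 6 falls under ligand. The shares of all genes, to set beside the counts of these lists, were 21.1% higher and 23.8% lower with inhibitor. With ligand they were 14.7% and 9.3%. The stem cell sums thus had the same order of groups as the mean signal of the replication genes, and their part in the member changes was not tested. Fibroblast markers summed to 401 to 479 with ligand, 259 to 329 with inhibitor and 366 to 393 untreated, and Col1a1, Col3a1, Dcn and Lum were at or under the filter level on all arrays. Leukocyte markers summed to 1520 to 2322 with ligand, 928 to 1037 with inhibitor and 1294 to 1484 untreated, while Ptprc, Cd3e, Itgam, Cd79a and Cd4 were at or under the filter level. Endothelial markers summed to 70.6 to 102 with ligand, 79.9 to 127 with inhibitor and 89.2 to 93.5 untreated, with 1 of 6, Kdr, above the filter.

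**Figure D2:**
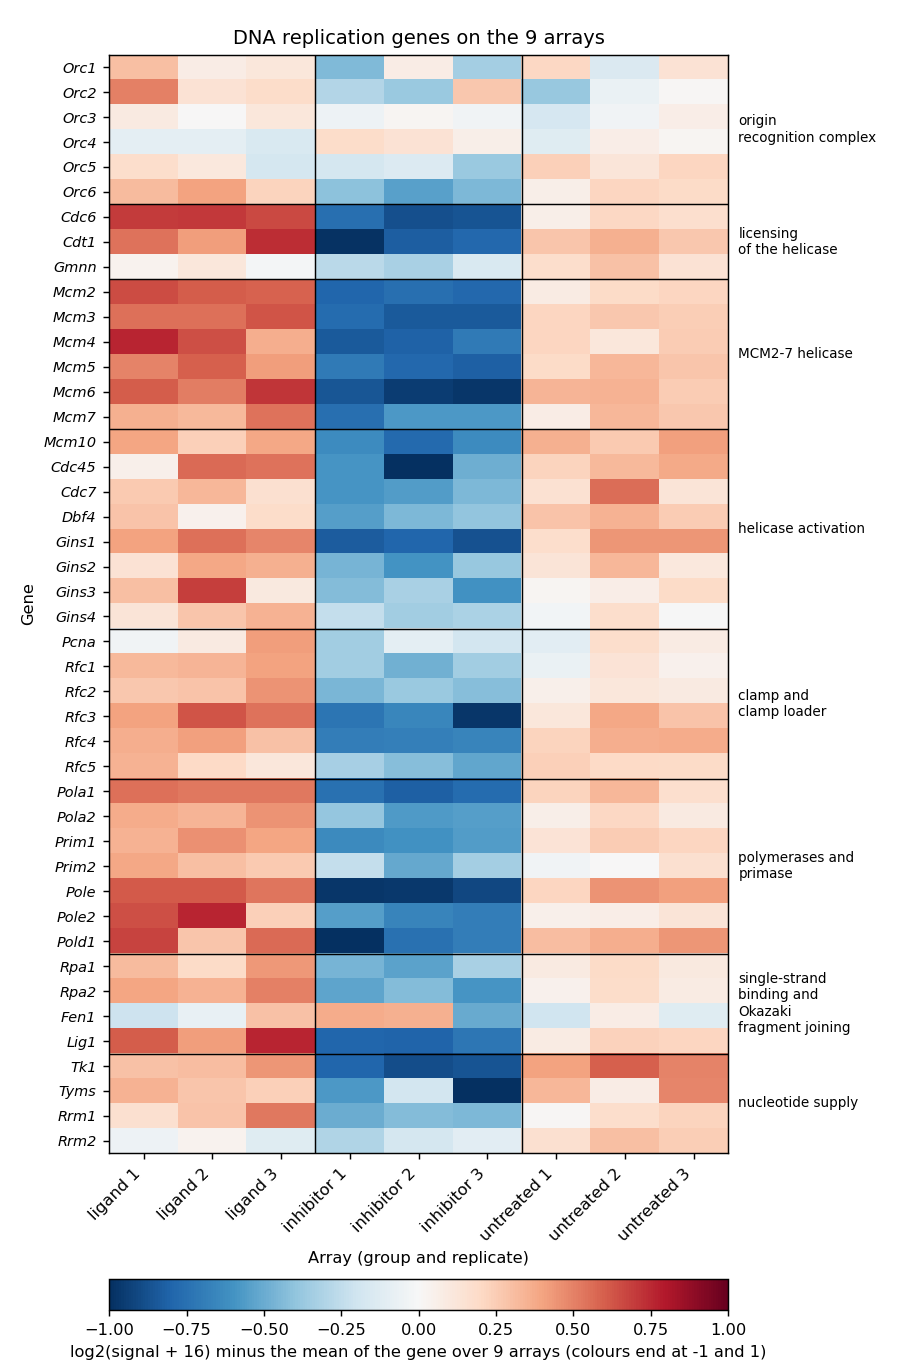
Each of the 44 members (rows, in order of role) on each of the 9 arrays (columns: ligand, inhibitor, untreated); colour is log2(signal + 16) minus that gene's mean over the 9 arrays, ending at -1 and 1. The inhibitor columns are blue in nearly every row below the first 4 origin recognition genes, with Fen1 as the clearest exception.

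**Figure D3:**
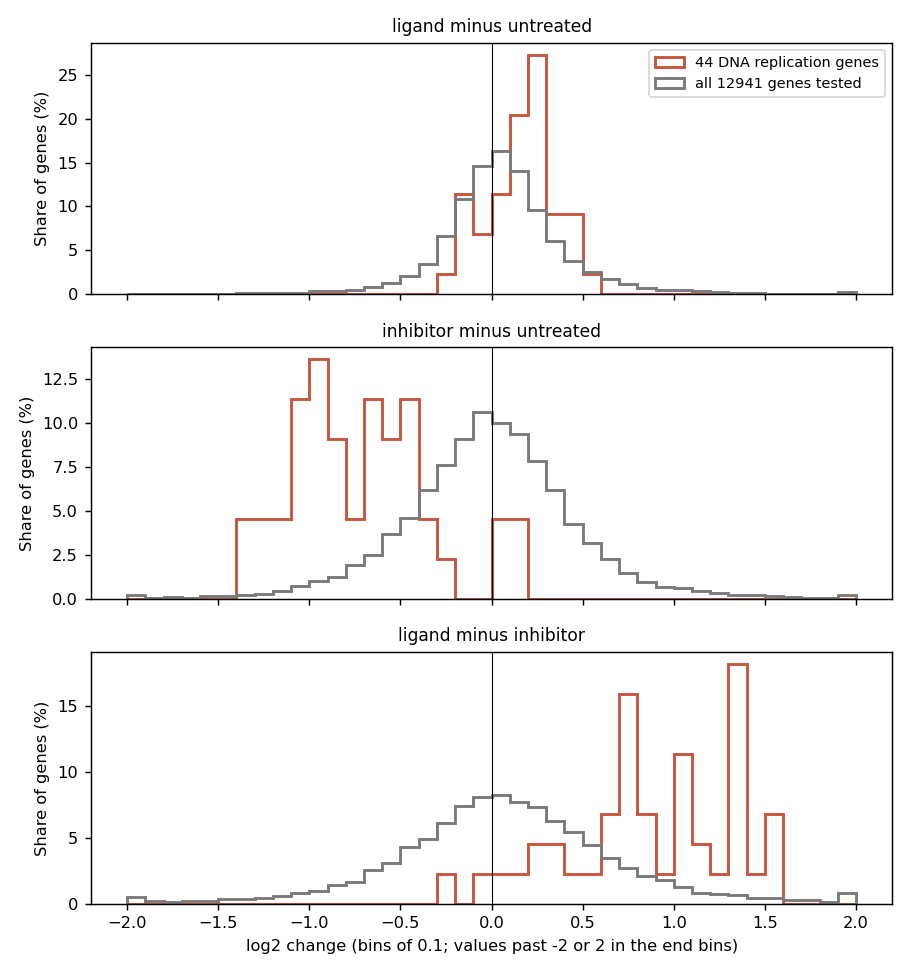
Share of genes (percent, y axis) per bin of log2 change (x axis, values past -2 or 2 in the end bins) for the 44 members and for all 12941 genes tested, in the 3 comparisons. The members' median lies at 0.19 for ligand minus untreated, -0.74 for inhibitor minus untreated and 0.88 for ligand minus inhibitor.

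The origin recognition complex was the group with the fewest calls with inhibitor against untreated. With inhibitor 2 of its 6 genes fell, Orc5 by 0.42 ± 0.10 and Orc6 by 0.62 ± 0.08 (adjusted p = 0.00325 and 2.73e-05), and the median of the 6 was -0.14. With ligand 0 of 6 changed from untreated. For ligand against inhibitor 3 of 6 were higher and 1, Orc4, was lower. The 3 were Orc1 (0.40 ± 0.15, adjusted p = 0.0424), Orc5 (0.26 ± 0.10, adjusted p = 0.036) and Orc6 (0.78 ± 0.08, adjusted p = 1.85e-06). The calls of Orc1 and Orc5 were lost under median centring and quantile normalization, among other settings. Over all genes, 23.8% fell with inhibitor, 24% were called with ligand, and 32.4% were higher and 22.8% lower for ligand against inhibitor. Whether a group of 6 departs from these shares was not tested. Orc4, which encodes a subunit of the ATP-binding core, had signals of 723, 723 and 697 with ligand, 882, 858 and 809 with inhibitor, and 713, 814 and 789 untreated. The ligand arrays were all below the inhibitor arrays, while untreated arrays overlapped with both. The difference of ligand from inhibitor was -0.24 ± 0.07 (adjusted p = 0.0102), and that of inhibitor from untreated was 0.14 ± 0.07 (adjusted p = 0.14). The other 3 probe sets of Orc4 above the filter gave ligand minus inhibitor values of 0.21 ± 0.11, -0.18 ± 0.10 and -0.08 ± 0.19, and none of the 3 passed the test.

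Orc2 and Orc3, 2 further subunits, were called in no comparison on their brightest probe sets. Orc2 read 272, 208 and 215 with ligand, 150.1, 141 and 229 with inhibitor, and 139.9, 178 and 189 untreated. Among the inhibitor arrays the third lay above every untreated array and the others near the lowest of them. The 95% interval of the change with inhibitor was -0.35 to 0.38, and the change with ligand was 0.42 ± 0.17 (adjusted p = 0.0887). Ligand exceeded inhibitor by 0.41 ± 0.17 (adjusted p = 0.0578). That difference passed for the mean of the probe sets of Orc2, without the third inhibitor array and without the first ligand array. On its other probe sets the difference was 0.46 ± 0.13 (adjusted p over all probe sets = 0.0134) and -0.03 ± 0.19. Orc3 read 423, 399.7 and 431 with ligand, 383, 404 and 387 with inhibitor, and 353, 387 and 417 untreated. These ranges overlap in all pairs of groups, and the 95% interval of the change with inhibitor was -0.15 to 0.20. Orc1, the subunit that comes and goes with the cell cycle in human cells, was read by a pair of probe sets that gave different answers: the brighter had a change with inhibitor of -0.30 ± 0.15 (adjusted p = 0.13), and the other had signals of 169, 168 and 176 with ligand, 79.5, 62.9 and 67.9 with inhibitor, and 113, 138 and 148 untreated. On that second probe set the 3 inhibitor arrays were below all others, with a change of -0.79 ± 0.13 against untreated (adjusted p over all probe sets = 0.000421).

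The licensing factors Cdc6 and Cdt1 fell with inhibitor and rose with ligand. Cdc6, the ATPase that helps load MCM2-7, had signals of 695, 699 and 678 with ligand, 244, 222 and 225 with inhibitor, and 441, 491 and 478 untreated. The 3 groups did not overlap in any pair, and the inhibitor signals were the lowest. The changes from untreated were 0.54 ± 0.08 with ligand (1.46-fold, adjusted p = 0.000223) and -0.98 ± 0.08 with inhibitor (adjusted p = 5.43e-07), and ligand exceeded inhibitor by 1.52 ± 0.08, or 2.87-fold. Cdc6 was the member whose rise with ligand was the largest, and the only 1 of the 18 members called there that kept its call under all 20 alternative settings. It has 1 probe set on the array, so settings that change the choice of probe set left its own value as it was. Cdt1, the partner of Cdc6 in loading, had signals of 3957, 3625 and 4509 with ligand, 1353, 1520.2 and 1560.1 with inhibitor, and 3287, 3457 and 3259.7 untreated. Here too the groups were separate, with changes of 0.27 ± 0.09 for ligand (adjusted p = 0.0375) and -1.17 ± 0.09 for inhibitor (adjusted p = 3.07e-07). The Cdt1 call with ligand was lost under many alternative settings, among them median centring and the removal of any 1 untreated array (adjusted p up to 0.402). Gmnn, which encodes the Cdt1 inhibitor geminin, fell less with inhibitor, by 0.45 ± 0.07 (adjusted p = 0.000189), and its value with ligand was -0.16 ± 0.07 (adjusted p = 0.123).

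All 6 genes of the MCM2-7 ring fell with inhibitor, by 0.86 (Mcm7) to 1.24 (Mcm6) on the log2 scale, with a median of -1.01. With ligand, 5 of the 6 rose over untreated and Mcm7 did not pass (0.18 ± 0.09, adjusted p = 0.167). Over all genes 23.8% fell with inhibitor and 14.7% rose with ligand. The ligand calls of Mcm3, Mcm4, Mcm5 and Mcm6 were lost under median centring. That of Mcm2 was lost without the first or without the third ligand array. Further probe sets of Mcm2, Mcm4, Mcm5 and Mcm6 above the filter were not called with ligand, and those of Mcm3 were called in part. Mcm6 had signals of 4279, 4019.6 and 4615 with ligand, 1546, 1449 and 1424 with inhibitor, and 3565, 3569.7 and 3343 untreated. The inhibitor arrays were the lowest and the ligand arrays the highest, with no overlap. Mcm6 had the largest difference of any member between ligand and inhibitor, 1.54 ± 0.07 or 2.9-fold (adjusted p = 2.33e-09), and fell 2.36-fold with inhibitor against untreated. Mcm2 had signals of 1291, 1251 and 1235 with ligand, 463, 477 and 465 with inhibitor, and 861, 934 and 947 untreated. Its arrays agreed closely within each group, and its rise with ligand was 0.46 ± 0.07 (adjusted p = 0.000253). Mcm7 had signals of 6038, 5907 and 6850.1 with ligand, 2779, 3157 and 3156 with inhibitor, and 4940.0, 5935 and 5676 untreated, so ligand and untreated overlapped at the second array of each. The remaining ring genes, Mcm3, Mcm4 and Mcm5, rose by 0.24 to 0.40 with ligand and fell by 0.98 to 1.06 with inhibitor.

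The 8 genes that turn the loaded ring into a moving helicase all fell with inhibitor (median -0.79), and with ligand 0 of the 8 passed the test against untreated (median 0.09). The shares over all genes were 23.8% lower with inhibitor and 24% called with ligand. Dbf4, the activating partner of the kinase Cdc7, had signals of 2023, 1708 and 1885 with ligand, 1123, 1206 and 1255 with inhibitor, and 2021, 2116 and 1984 untreated. The inhibitor arrays were the lowest and the ligand arrays overlapped with the untreated ones. Its change was -0.13 ± 0.08 with ligand (adjusted p = 0.258) and -0.76 ± 0.08 with inhibitor (adjusted p = 3.62e-06). Gins1 fell the most in the group, by 1.18 ± 0.09, and Gins4, of the same complex, the least, by 0.35 ± 0.08 (adjusted p = 0.0034). Mcm10, a factor that binds the active helicase, had a change of -1.02 ± 0.08 with inhibitor and of 0.00 ± 0.08 with ligand. Cdc45, the helicase's own cofactor, had signals of 171, 251 and 246 with ligand, 104, 73.9 and 113 with inhibitor, and 194, 209 and 218 untreated. Its change with inhibitor was -0.999 ± 0.16 (adjusted p = 0.000209). Gins3, whose signals did not pass 169 on any array, fell by 0.55 ± 0.16 with inhibitor (adjusted p = 0.0121), and without the third inhibitor array this missed the threshold (adjusted p = 0.051).

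Pcna, the sliding clamp that holds polymerases on the DNA, was among the members that changed least. Its signals were 8986, 9804 and 12302 with ligand, 7218, 8611 and 8111 with inhibitor, and 8537, 10379.7 and 9712 untreated. The second inhibitor array lay just above the first untreated array, and ligand and untreated overlapped. The change with inhibitor was -0.26 ± 0.12 (adjusted p = 0.0975) and that with ligand 0.11 ± 0.12 (adjusted p = 0.557), while ligand exceeded inhibitor by 0.37 ± 0.12 (adjusted p = 0.018). The change with inhibitor passed after quantile normalization and in a fit of those 2 groups alone. It also passed with a replicate block and without the third ligand array (adjusted p down to 0.00813 over these settings). The call for ligand against inhibitor was lost without the first inhibitor array, without the third ligand array, or with each array centred on its median (adjusted p up to 0.261 under these settings). The 5 subunits of replication factor C, which opens the clamp and loads it, all fell with inhibitor, from 0.43 ± 0.07 for Rfc1 to 1.05 ± 0.10 for Rfc3. Over all genes 23.8% fell with inhibitor. Rfc1, the large subunit, and Rfc2 rose with ligand by 0.32 ± 0.07 and 0.25 ± 0.07 (adjusted p = 0.00779 and 0.0183). Rfc3 had a value of 0.27 ± 0.10 that did not pass (adjusted p = 0.0765), and Rfc4 and Rfc5 had values of 0.04 and 0.01.

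All 7 genes of the polymerases and primase fell with inhibitor (median -0.80), and 6 of the 7 rose with ligand (median 0.27). Over all genes 23.8% fell with inhibitor and 14.7% rose with ligand. The ligand calls of Pola1, Pola2, Prim1, Prim2 and Pole were lost under median centring. That of Pole2 was lost for the mean of its probe sets. Pole, the catalytic subunit of the leading-strand polymerase epsilon, had signals of 845, 843 and 802 with ligand, 272, 273 and 284 with inhibitor, and 638, 751 and 734 untreated. The 3 groups were separate, with inhibitor far below. Pole was 2.47-fold lower with inhibitor than untreated (-1.31 ± 0.08, adjusted p = 5.15e-08) and 2.9-fold higher with ligand than with inhibitor. Its rise with ligand over untreated was 0.23 ± 0.08 and close to the threshold (adjusted p = 0.0486). Pole2, its second subunit, had signals of 794, 864 and 595 with ligand, 338, 312 and 305 with inhibitor, and 519, 526 and 550.1 untreated. The third ligand array stood well under the other ligand arrays, though still above all untreated ones, and the rise was 0.47 ± 0.11 (adjusted p = 0.00889). Pold1, the catalytic subunit of polymerase delta, had signals of 669, 502 and 617 with ligand, 172, 239 and 248 with inhibitor, and 514, 534 and 564 untreated. It fell 2.37-fold with inhibitor (-1.24 ± 0.13), and its second ligand array lay under every untreated array. The value with ligand, 0.14 ± 0.13, did not pass (adjusted p = 0.501), nor did it under any alternative setting, leaving out that array among them (lowest adjusted p = 0.192). Prim1, the primase subunit that makes the RNA primers, had signals of 2465, 2656 and 2535 with ligand, 1235, 1262 and 1304 with inhibitor, and 2119, 2304 and 2236 untreated. Its groups did not overlap, at 0.20 ± 0.06 for ligand and -0.80 ± 0.06 for inhibitor (adjusted p = 0.037 and 6.26e-07). The Prim1 call with ligand was also lost on removal of any 1 untreated array. Pola1 and Pola2, which complete the primase complex, rose with ligand by 0.29 and 0.27 and fell with inhibitor by 1.02 and 0.62. Prim2 fell with inhibitor by 0.41 ± 0.09, and the mean over its probe sets above the filter gave -0.13 with no call.

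Rpa1, the large subunit of the protein that coats single-stranded DNA, had signals of 2821, 2589.6 and 3061 with ligand, 1639, 1556 and 1809 with inhibitor, and 2404, 2589 and 2416 untreated. It fell by 0.56 ± 0.08 with inhibitor (adjusted p = 7.45e-05), and with ligand its lowest array was level with the highest untreated one and the value did not pass (0.19 ± 0.08, adjusted p = 0.104). Rpa2, the middle subunit, rose with ligand by 0.32 ± 0.07 and fell with inhibitor by 0.62 ± 0.07. Lig1, the ligase that seals Okazaki fragments, rose by 0.42 ± 0.08 and fell by 0.95 ± 0.08 in the same 2 comparisons. Fen1, the nuclease that trims the flaps of Okazaki fragments, depended on the probe set. The brightest probe set had signals of 1212, 1326 and 1717 with ligand, 1815, 1799 and 984 with inhibitor, and 1214, 1477 and 1288 untreated. On it the third inhibitor array was the lowest of all 9 and the other inhibitor arrays the highest, so the interval of the change with inhibitor ran from -0.26 to 0.58 and no comparison was called. With the third array left out the value was 0.45 and was called. The other probe set had signals of 979.5, 1129 and 1249 with ligand, 533, 558 and 576 with inhibitor, and 952, 1026 and 928 untreated. There the inhibitor arrays lay far below both other groups, at -0.78 ± 0.09 against untreated (adjusted p over all probe sets = 2.57e-05) and with ligand 0.98 ± 0.09 above inhibitor, values within the range of the other lagging-strand genes. The brighter one carries the suffix that the array design gives to probe sets that may also bind other transcripts, as do those used for Mcm5, Pold1 and Rrm2.

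The 4 enzymes of nucleotide supply fell with inhibitor and had 0 rises with ligand (median -0.08), where 23.8% of all genes fell and 14.7% rose. Tk1, the thymidine salvage kinase of dividing cells, had signals of 1342, 1353 and 1491 with ligand, 622, 584 and 594 with inhibitor, and 1444, 1663 and 1544 untreated. It had the largest fall of the 44 with inhibitor, 2.54-fold (-1.34 ± 0.07, adjusted p = 2.68e-08), and its value with ligand was -0.15 ± 0.07 (adjusted p = 0.165). Rrm2, the regulated small subunit of ribonucleotide reductase, had signals of 2099, 2230.0 and 1996 with ligand, 1760.3, 1923 and 2013 with inhibitor, and 2434, 2679.8 and 2581 untreated. The untreated arrays were the highest and both treated groups lay below them and overlapped with each other. Rrm2 was thus lower than untreated by 0.28 ± 0.07 with ligand (adjusted p = 0.0138) and by 0.43 ± 0.07 with inhibitor (adjusted p = 0.000341), and the difference of ligand from inhibitor, 0.15 ± 0.07, did not pass (95% interval -0.01 to 0.31). That difference passed after quantile normalization, for the mean of its probe sets and without the third ligand array (values up to 0.23), and on 1 of the other 2 probe sets of the gene (0.39, adjusted p over all probe sets = 0.0335). The call with ligand was lost without the second untreated array (adjusted p = 0.0609). Rrm1, the large subunit, fell by 0.59 ± 0.09 with inhibitor and had a value of 0.19 ± 0.09 with ligand (adjusted p = 0.16). Tyms, thymidylate synthase, had signals of 87.0, 82.4 and 79.5 with ligand, 38.4, 55.5 and 24.4 with inhibitor, and 85.7, 69.5 and 97.4 untreated. It fell by 0.88 ± 0.20 with inhibitor (adjusted p = 0.00253), with 1 inhibitor array below the level of the filter.

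**Figure D4:**
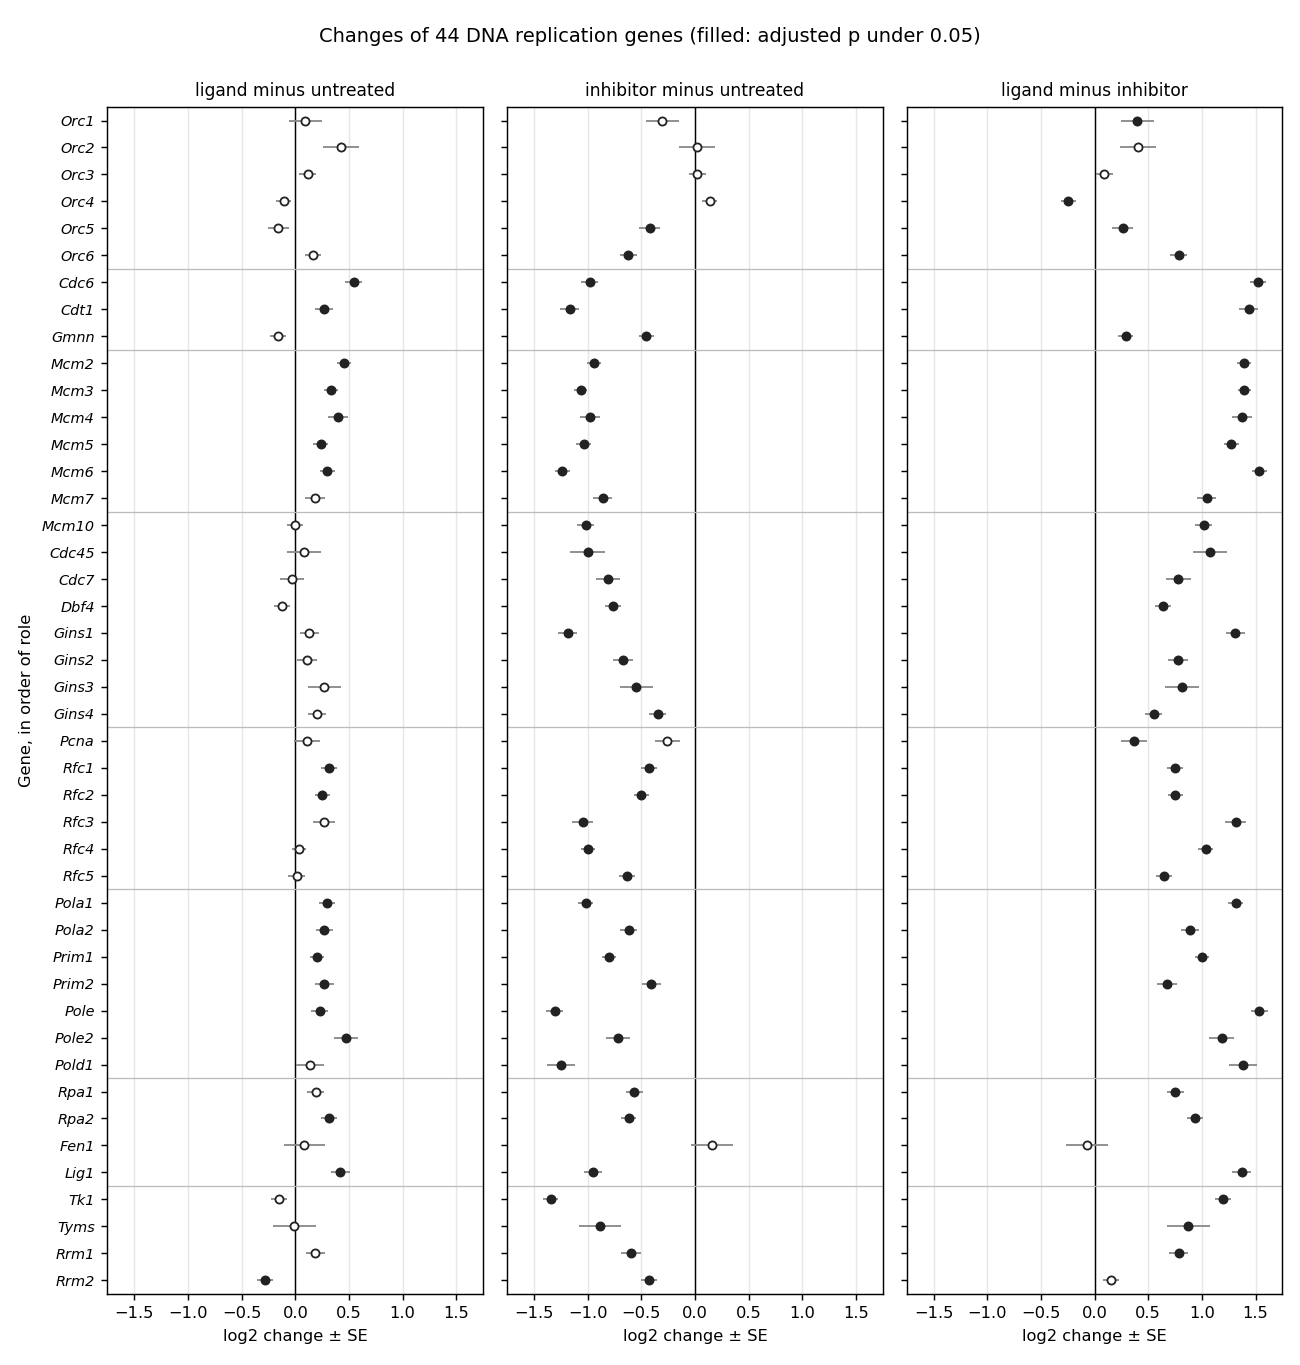
Log2 change with its standard error for all 44 members in order of role, for ligand minus untreated, inhibitor minus untreated and ligand minus inhibitor; filled points passed the adjusted p of 0.05. In the middle panel 38 points are filled and all of these lie left of 0, and in the left panel 17 filled points lie right of 0 and Rrm2 lies left of it.

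**Figure D5:**
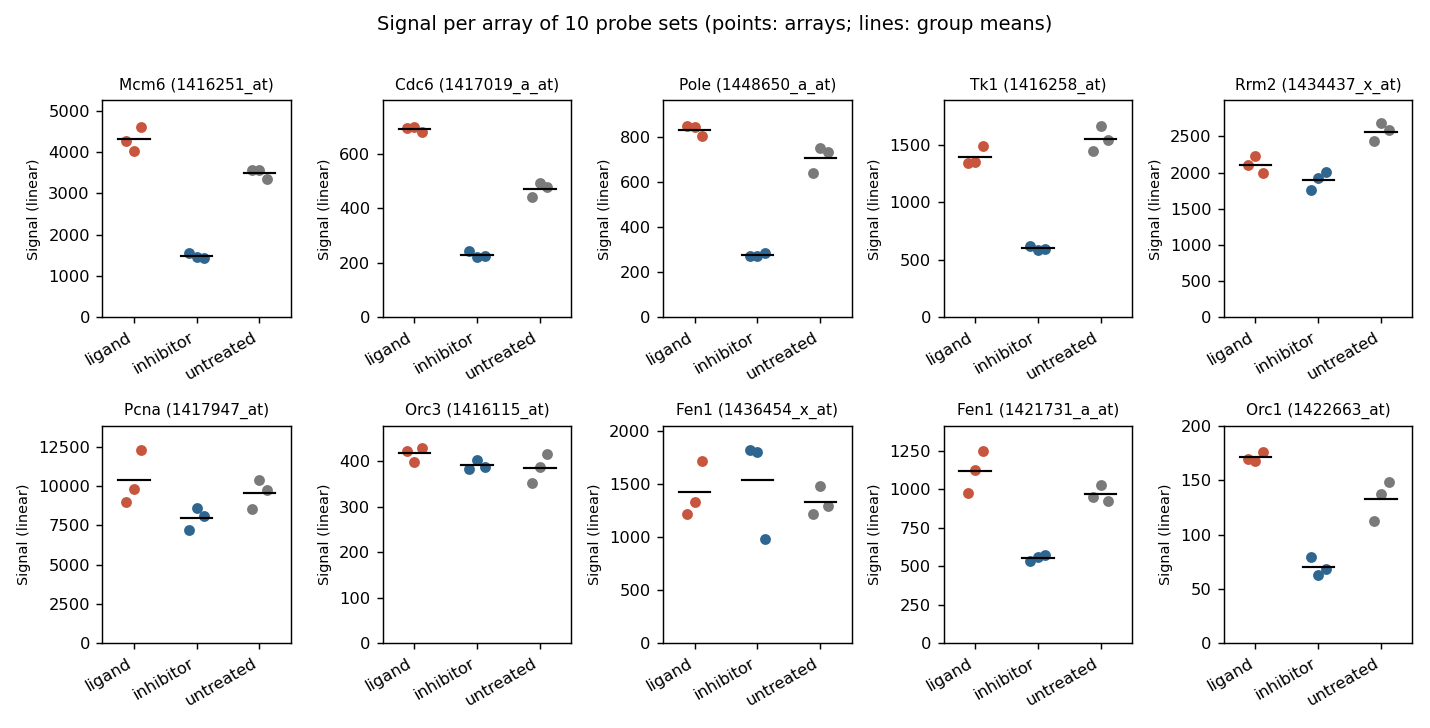
Linear signal of 10 probe sets on each of the 9 arrays; points are arrays, horizontal lines are group means, and axes start at 0. Mcm6, Cdc6, Pole and Tk1 are lowest with inhibitor, Rrm2 is highest untreated, and the 2 probe sets of Fen1 differ in which group is lowest.

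Probe sets of the same gene were compared for the 32 members that had more than 1 above the filter, 47 further probe sets in all. A further probe set counted as the same where it and the brightest one were called in the same direction, or where neither was called. For inhibitor against untreated, 31 of the 47 were the same and 14 lost the call. A call was gained by 2 (of Orc1 and Fen1), and 0 were called in the opposite direction. Ligand against untreated gave 32 that were the same, pairs without any call among them, and 15 that lost the call. Only Cdt1, Mcm3, Rfc2, Rpa2 and Rrm2 kept a ligand call on a further probe set. Ligand against inhibitor gave 33 that were the same, 11 that lost the call and 3 that gained one. Further probe sets were adjusted over all probe sets, and gene calls over genes. Adjusted over all probe sets, the brightest ones of Cdt1, Prim1, Prim2 and Pole also missed the threshold with ligand (adjusted p = 0.0587 to 0.0745).

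The 14 members with an E2F spelling in their window had a median change of -0.9998 with inhibitor, 0.27 with ligand and 1.31 between ligand and inhibitor. The 22 members whose window held none had medians of -0.62, 0.08 and 0.78 in the same order, and the difference between these classes was not tested. Members of the first class ranged widely all the same: Mcm6 with 3 matches fell by 1.24 with inhibitor, while Orc3, with a match 5′ of its start, had a change of 0.02 ± 0.08.

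Other genes of the replication fork, nucleotide supply, chromatin and the cell cycle were counted in the same way, to be read against the shares of all genes: 21.1% higher and 23.8% lower with inhibitor, 14.7% and 9.3% with ligand, and 32.4% and 22.8% for ligand against inhibitor. Of 26 replication fork genes outside the 44 members, 21 fell and Pold4 rose with inhibitor (median -0.64), 7 rose and 0 fell with ligand (median 0.11), and 22 were higher and Pold4 lower with ligand than with inhibitor (median 0.78). Timeless, a fork protection protein, had signals of 762, 834 and 762 with ligand, 239, 234 and 264 with inhibitor, and 553, 607 and 564 untreated. Its groups were separate, at 0.44 ± 0.08 for ligand and -1.18 ± 0.08 for inhibitor. Pold4, the smallest subunit of polymerase delta, went the other way, with signals of 516, 474 and 575 with ligand, 1185, 1178 and 1189 with inhibitor, and 537, 576 and 552 untreated. Its level with inhibitor was above every other array, by 1.07 ± 0.08 on the log2 scale over untreated (adjusted p = 2.39e-07), in contrast to Pold1 of the same enzyme and to Pold2, its accessory subunit, which fell by 1.13 ± 0.08. Mcm9, a relative of the ring genes with a role in recombination, rose with ligand by 0.48 ± 0.10 and had a value of -0.07 ± 0.10 with inhibitor (adjusted p = 0.628). Dscc1, part of the alternative clamp loader, rose with ligand by 0.41 ± 0.08 and fell with inhibitor by 0.76 ± 0.08. Top2a, the topoisomerase that untangles copied DNA, fell with inhibitor by 0.84 ± 0.07 and had a value of 0.11 ± 0.07 with ligand.

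Of 14 other genes of nucleotide synthesis that were tested, 10 fell and 1, Rrm2b, rose with inhibitor (median -0.58), and with ligand only Atic, of purine synthesis, passed, with a rise of 0.30 ± 0.09. Shmt1, which supplies one-carbon units for thymidylate, fell by 1.33 ± 0.07 and Gart, of purine synthesis, by 1.27 ± 0.08 with inhibitor. Rrm2b, the reductase subunit used outside S phase, rose by 0.33 ± 0.12 (adjusted p = 0.0363). Of 9 genes that rebuild chromatin behind the fork, 8 fell with inhibitor (median -0.67) and 1, the maintenance methyltransferase gene Dnmt1, rose with ligand by 0.30 ± 0.08. Uhrf1, which guides Dnmt1 to newly copied DNA, had signals of 2568, 2511 and 1942 with ligand, 712, 739 and 711 with inhibitor, and 2025, 2153 and 2173 untreated. Its fall with inhibitor, 1.53 ± 0.09, exceeded that of any member, while the third ligand array lay under the untreated ones and the value with ligand was 0.13 ± 0.09 (adjusted p = 0.34).

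Among 13 genes of S-phase cyclins and E2F factors, 8 fell and E2f2 rose with inhibitor (median -0.39), where 23.8% of all genes fell and 21.1% rose. With ligand 2 rose (Cdk2 and E2f1) and 1 fell (E2f8), and only these ligand counts were near the shares of all genes. E2f1, an activator of replication genes, had signals of 189.8, 151 and 153 with ligand, 97.9, 88.5 and 82.5 with inhibitor, and 113, 107 and 126 untreated. The groups did not overlap, with changes of 0.46 ± 0.13 with ligand (adjusted p = 0.0194) and -0.31 ± 0.13 with inhibitor, the second short of the threshold (adjusted p = 0.0597). Cdk2, the kinase that works with cyclins E and A, rose by 0.38 ± 0.07 with ligand and fell by 0.74 ± 0.07 with inhibitor. E2f8, a repressor of the family, fell by 0.21 ± 0.07 with ligand (adjusted p = 0.0435) and by 0.91 ± 0.07 with inhibitor. Ccne1, which encodes cyclin E1, had values of 0.28 ± 0.10 and -0.10 ± 0.10 in these comparisons and passed in neither.

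Mitosis genes served as a second view of the cell cycle. With inhibitor 25 of 25 fell (median -0.68), close to the replication genes' median of -0.74. With ligand 1, the kinetochore gene Cenpf, rose and 5 fell (Ccnb2, Aurka, Kif11, Cenpa and Birc5), for a median of -0.08 against 0.19 for the replication genes; the difference between the lists was not tested. Birc5, survivin, had signals of 1874, 1748 and 1702 with ligand, 1252, 1195 and 1305 with inhibitor, and 2163, 2563 and 2173 untreated. The groups were separate, at -0.37 ± 0.08 with ligand (adjusted p = 0.00421) and -0.87 ± 0.08 with inhibitor. Aurka, a spindle kinase, fell by 0.32 ± 0.09 and 0.83 ± 0.09 in the same comparisons. Mki67, the proliferation marker, fell with inhibitor by 0.57 ± 0.08 and had a value of 0.01 ± 0.08 with ligand.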

How the data were processed

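The deposited table holds 1 intensity per probe set and array on a linear scale, summarised with MAS5 by the authors per the submitters' processing notes (version and genome build not given in the sources used here). MAS5 subtracts a mismatch signal, which leaves dim values noisy, and scaling each array to 1 level hides differences in total RNA. Of 45101 probe sets, 34945 had 1 gene symbol, 932 several and 9160 none in the platform annotation, and 64 were controls. All 44 members matched RefSeq by Entrez identifier. Signals were taken as log2(signal + 16), which understates changes of dim genes (28.9% of values did not exceed 16). The filter kept a probe set that passed their array's 40th percentile (signals of 25.9 to 32.0) on at least 3 of 9 arrays. One mean per group was fitted with limma 3.58.1 in R 4.3.3 (6 residual degrees of freedom, intensity trend, 2-sided). The fit was tested on simulated data. The members, the lists and the tests were chosen with earlier results of these data known. Values on every array are given for the 3 rising and 3 falling members with the largest changes per comparison among called members whose groups do not overlap, the brightest called member of each role, and members called in no comparison. Up to 3 genes with the smallest p per related list and comparison were eligible for naming, with Mki67, Pold2, Top2a, Ccne1 and E2f1 fixed beside them. Values given outside this rule (Orc1, Cdc45, Tyms, and the list genes Rrm2b, E2f2, Cenpa, Lgr5, Olfm4, Cldn3 and Krt18) were chosen after they were seen. Motifs were matched by exact letters.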

Additional observations from a re-analysis of the deposited data

How the results depend on the processing

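Of 20 alternative settings, 9 left out 1 array each. For inhibitor against untreated, 36 of 38 member calls held under all 20, and the median change was -0.63 with an offset of 64, -0.69 after quantile normalization, -0.70 after median centring, -0.78 with probe sets ending in _x_at passed over, -0.64 for the mean of probe sets, and -0.75 to -0.70 without 1 array; 0 to 1 members rose without 1 array. For ligand against inhibitor, 35 of 40 held, and the median was 0.95 with an offset of 1, 0.78 with 64, 0.82 after quantile normalization, 0.72 after median centring, 0.78 for the mean of probe sets, and 0.85 to 0.94 without 1 array; 0 members were lower for the mean of probe sets and 1 to 2 without 1 array. For ligand against untreated, 1 of 18 held (Cdc6). There the median was 0.075 after median centring and 0.14 to 0.23 without 1 array, and the members that rose numbered 3 after median centring, 10 for the mean of probe sets and 10 to 16 without 1 array, with 0 to 1 that fell. Over all genes, 61.3% of the calls with ligand against untreated were higher, and 36.5% after median centring; for ligand against inhibitor 58.6%, and 41.7%. Fen1 reversed: with its brightest probe set passed over, it was -0.785 for inhibitor against untreated and 0.98 for ligand against inhibitor, and 0.46 there for the mean of its probe sets. Values that were not called changed sign 6, 6 and 26 times in these comparisons as ordered here, of 879 member values each. The cause of these shifts was not tested. Same-numbered arrays did not deviate together (correlations of -0.08 to 0.08, 0 of 9 over 0.1). The values thus gave no sign of pairing by number, but low correlations cannot exclude a shared culture or batch. With a replicate block, 39 members fell with inhibitor, 15 rose and 1 fell with ligand, 38 were higher and 1 lower for ligand against inhibitor, and 5738, 2982 and 7129 genes were called. Tyms failed the filter at the 60th percentile. The number of arrays limits the precision.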
